A study of Mus musculus with 6 samples.

Results

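A set of 9 surface markers that are used to subdivide mouse blood stem and early progenitor cells were read over 6 whole-transcript arrays: the receptor tyrosine kinases Kit, Flt3 and Tek, the SLAM family members Slamf1 and Cd48, and Procr, Esam, Cd34 and Thy1. They were chosen by gene symbol, as every probe set of the deposited table to which the platform annotation gives one of these symbols alone. Each of the 9 genes had 1 such probe set, out of 21601 probe sets with values and a single symbol (19934 symbols), and all 9 carried a value on every array. All 9 symbols matched RefSeq genes of GRCm38.p6 by Entrez identifier.

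The cells were bone marrow cells of the gate Lin-c-Kit+Sca-1+ that were also positive for GFP, sorted 14 days after transplantation. Donors were C57BL/6 (B6) mice, either wild type or Alox5-/- (lacking arachidonate 5-lipoxygenase), labelled as 8 weeks old and treated with 5-fluorouracil before marrow was taken. The marrow was transduced with retrovirus and given to B6 recipients, a transplantation model of chronic myeloid leukaemia. HSC is the group of wild-type cells without BCR-ABL, named as vector cells in the sample descriptions (GFP alone). LSC, leukaemia stem cells, is the group of wild-type cells carrying BCR-ABL/GFP, and Alox5-/- LSC carries BCR-ABL/GFP in cells of Alox5-/- donors. Each group has 2 arrays. All 3 groups share the drug treatment, transduction, transplantation and sort, and BCR-ABL is driven by a retrovirus in cells sorted as a gate, so a group mixes stem and progenitor cells. A vector group of Alox5-/- donors was not analysed here. The titles number the arrays of a group as biological replicates. No source used here gives the number of animals behind an array, so p-values measure only the spread between these samples.

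The gate Lin-c-Kit+Sca-1+ holds stem cells together with multipotent progenitors, and the 9 markers are among those that separate them. In normal mouse marrow, long-term repopulating stem cells carry Slamf1 (CD150), Procr (EPCR), Esam and Tek (Tie2) on the surface, with low Thy1 and little or no Cd34, Flt3 and Cd48. Multipotent progenitors gain Cd34 and Cd48, and those primed for the lymphoid lineage gain Flt3. Kit, the receptor for stem cell factor, is one of the proteins on which all 6 samples were sorted.

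The deposited value is a score whose unit and direction no source used here states. It ran from 0 to 62.1 over the arrays and its array medians over the fitted probe sets ran from 14.9 to 17.0. Several transcripts taken to be abundant in blood cells, which was not measured here, lay low on it. Actb, cytoplasmic actin, stood at percentile 0.787 of the mean score, Mpo, the myeloperoxidase of granulocyte progenitors, at percentile 1.26, and Ptprc (CD45), carried by blood cells in general, at percentile 3.55. The 175 probe sets with ribosomal protein symbols had a median at percentile 5.71, and 1034 of olfactory receptors, sensory genes, one at percentile 49.8. These genes were chosen after their values were seen. A higher score is therefore not read as higher expression, no fold change is given, and "higher" and "lower" below refer to the score. Alox5, the gene disrupted in one donor strain, had scores of 12.6 and 19.9 in HSC, 13.2 and 14.2 in LSC, and 14.4 and 13.5 in Alox5-/- LSC. These ranges overlap, the probe set may lie outside the disrupted part, and the genotype label is not checked by them. In sorted bulk samples, fewer cells of a type and less RNA per cell cannot be told apart.

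A total of 3 members had scores on all 4 BCR-ABL arrays that lay beyond both HSC arrays: Slamf1 and Procr above them and Cd34 below them. The same held for 16.0% of all probe sets, 2.59% above and 13.5% below. The stretch of 250 bases before the annotated start of each of these genes is shown because most values below turn on these 3. Sequences are those of RefSeq genes in GRCm38.p6, 5′ to 3′ on the gene's strand, which is the plus strand for all 3. The windows are chr1:171766882-171767131 for Slamf1, chr2:155750967-155751216 for Procr and chr1:194938571-194938820 for Cd34. Capitals mark matches to any of 5 motifs searched on both strands.
Slamf1: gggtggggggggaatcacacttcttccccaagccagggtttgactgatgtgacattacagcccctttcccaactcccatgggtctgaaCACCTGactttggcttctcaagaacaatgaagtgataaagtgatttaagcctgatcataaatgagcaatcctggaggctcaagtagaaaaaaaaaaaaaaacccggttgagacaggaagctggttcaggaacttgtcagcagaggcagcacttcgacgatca
Procr: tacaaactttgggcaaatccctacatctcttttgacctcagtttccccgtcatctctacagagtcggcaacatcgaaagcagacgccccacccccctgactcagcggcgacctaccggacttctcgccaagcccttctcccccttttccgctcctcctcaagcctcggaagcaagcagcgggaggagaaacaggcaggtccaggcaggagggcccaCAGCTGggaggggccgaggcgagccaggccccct
Cd34: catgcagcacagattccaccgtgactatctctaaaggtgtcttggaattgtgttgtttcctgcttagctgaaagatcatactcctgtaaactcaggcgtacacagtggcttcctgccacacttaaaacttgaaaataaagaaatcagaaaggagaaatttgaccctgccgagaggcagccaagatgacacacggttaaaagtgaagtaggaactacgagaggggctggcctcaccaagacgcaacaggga

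The ETS factor motif was searched as GAGGAA and the RUNX factor motif as TGTGGT. The GATA factor motif was searched as AGATAA, the motif of STAT factors as TTCNNNGAA, and the E-box, read by basic helix-loop-helix factors, as CANNTG. Slamf1 held 1 match, an E-box whose first base lies at -162 relative to the start. Procr also held 1, an E-box at -34. The Cd34 window held none of these letters. An E-box stood in 66.2% of all 32851 promoter windows of this length, so its presence in both windows is common. Over the 7 members with a window in the table (8 windows, 2 of them for Kit), the ETS motif was found in Kit alone (23.3% of all windows) and the RUNX motif in Cd48 alone (14.0%), where it overlaps an E-box. The GATA motif (9.99% of all windows) and the STAT motif (7.02%) were found in none of the 8. Slamf1 and Cd48 lie close together on chromosome 1, with 1 protein-coding gene between them in that annotation. A match is a string of letters and not a measured binding site.

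**Figure D1:**
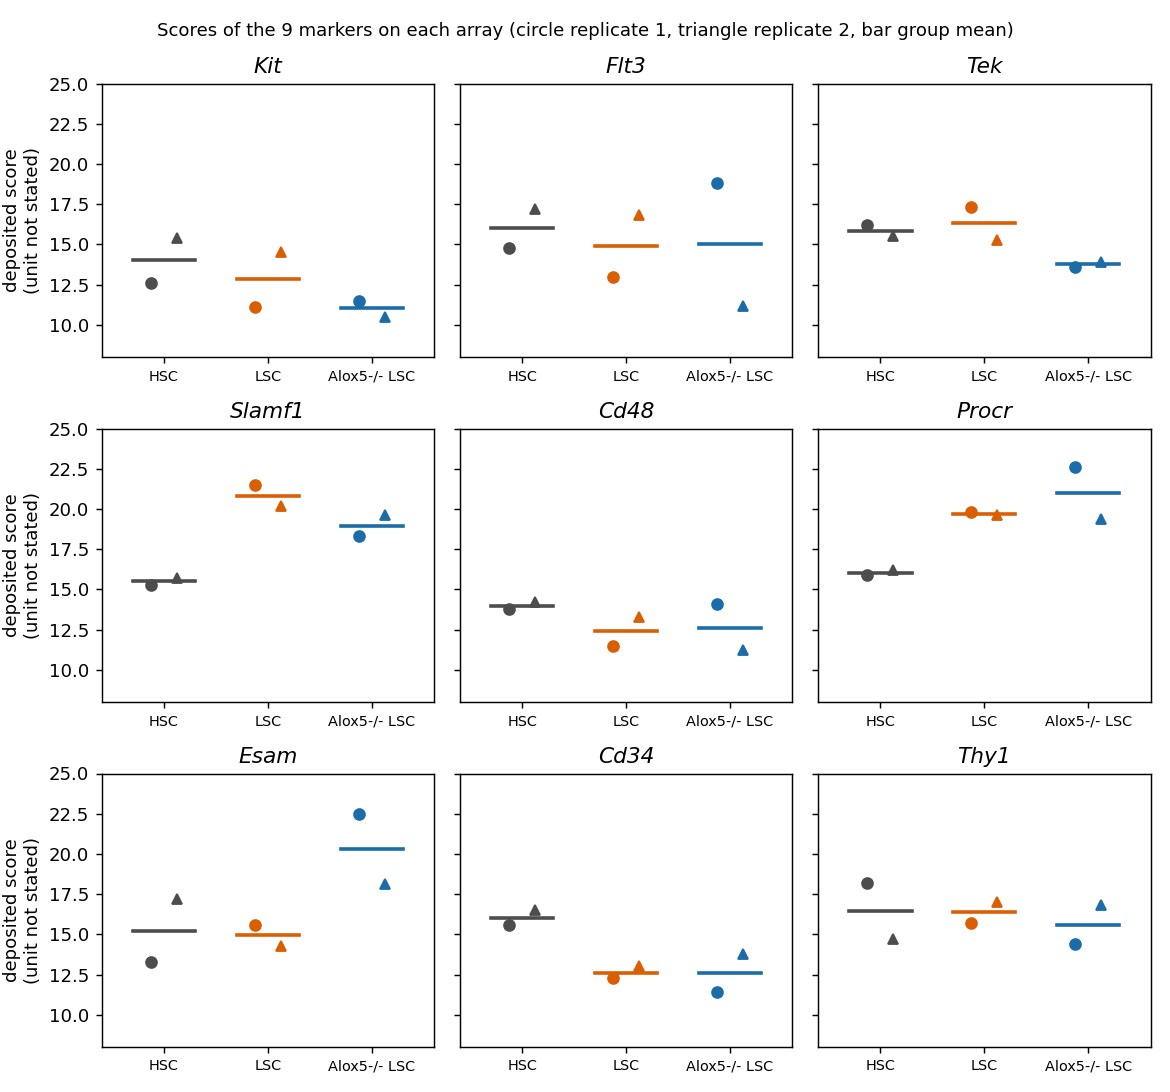
Deposited score (unit not stated) of the 9 markers on each array, with circles for replicate 1, triangles for replicate 2 and bars for group means. Slamf1 and Procr stand higher, and Cd34 lower, on the 4 BCR-ABL arrays than on both HSC arrays, and Esam is highest on both Alox5-/- LSC arrays.

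The receptor tyrosine kinases come first. Kit (probe set 10522530) had scores of 12.6 and 15.4 in HSC, 11.1 and 14.5 in LSC, and 11.5 and 10.5 in Alox5-/- LSC. The HSC and LSC arrays interleave, and both Alox5-/- LSC arrays lie below both HSC arrays. Group means ran from 14.01 ± 1.98 (SD, n = 2) in HSC through 12.83 ± 2.39 in LSC to 11.02 ± 0.68 in Alox5-/- LSC, and neighbours in that order overlap. Flt3 (probe set 10535780), the receptor of FLT3 ligand on lymphoid-primed progenitors, had 14.8 and 17.2 in HSC, 13.0 and 16.8 in LSC, and 18.8 and 11.2 in Alox5-/- LSC. Its 2 Alox5-/- LSC arrays were its highest and its lowest. The pooled SD of Flt3 within groups was 3.62, larger than for 94.6% of probe sets, against a median of 1.39 over all of them. Tek (probe set 10505954), the angiopoietin receptor, had 16.2 and 15.5 in HSC, 17.3 and 15.3 in LSC, and 13.6 and 13.9 in Alox5-/- LSC. Both Alox5-/- LSC scores of Tek lie below the other 4, while HSC (mean 15.85) and LSC (mean 16.33) overlap.

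The SLAM family members are immunoglobulin-type receptors of blood cells, and the pair is used to set stem cells (Slamf1 on, Cd48 off) apart from progenitors. Slamf1 (probe set 10351667), which binds itself on neighbouring cells, had scores of 15.3 and 15.7 in HSC, 21.5 and 20.2 in LSC, and 18.3 and 19.6 in Alox5-/- LSC. The 3 groups of Slamf1 do not overlap, in the order HSC (15.52 ± 0.327), Alox5-/- LSC (18.96 ± 0.918) and LSC (20.83 ± 0.93). The last pair overlap once each array is centred on its median. Its pooled SD, 0.778, was among the lower ones (percentile 18.6). Cd48 (probe set 10351658), a GPI-anchored ligand of other SLAM family receptors, had 13.8 and 14.2 in HSC, 11.5 and 13.3 in LSC, and 14.1 and 11.2 in Alox5-/- LSC. Both LSC arrays lie below both HSC arrays, and the Alox5-/- LSC arrays span nearly the whole range of Cd48.

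Procr and Esam are proteins of vessel walls that stem cells also carry. Procr (probe set 10477717), the endothelial receptor of protein C, had scores of 15.9 and 16.2 in HSC, 19.8 and 19.6 in LSC, and 22.6 and 19.4 in Alox5-/- LSC. All 4 BCR-ABL arrays lie above both HSC arrays, and the Alox5-/- LSC arrays lie on either side of the LSC pair. Esam (probe set 10584317), an adhesion molecule of endothelial tight junctions, had 13.3 and 17.2 in HSC, 15.6 and 14.3 in LSC, and 22.5 and 18.1 in Alox5-/- LSC. Both Alox5-/- LSC scores of Esam lie above the other 4, and the LSC scores lie between the 2 HSC scores. Cd34 (probe set 10352905), a sialomucin gained by progenitors, had 15.6 and 16.5 in HSC, 12.3 and 13.0 in LSC, and 11.4 and 13.8 in Alox5-/- LSC. Its BCR-ABL arrays all lie below its HSC arrays, with LSC (12.60) and Alox5-/- LSC (12.57) at nearly the same mean. Thy1 (probe set 10584628), a GPI-anchored protein of T cells and, at a low level, of stem cells, had 18.2 and 14.7 in HSC, 15.7 and 17.0 in LSC, and 14.4 and 16.8 in Alox5-/- LSC. The 3 groups of Thy1 overlap one another.

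The first comparison, LSC against HSC, addresses what BCR-ABL alters in cells of this gate. No probe set passed the threshold of an adjusted p under 0.05 (limma with Benjamini-Hochberg adjustment over 21601 probe sets; 0 called, 0.0%), so no member did, and the smallest adjusted p was 0.709 over all probe sets and 0.999 among the members. At an unadjusted p under 0.05 stood 3 of the 9 members, against 4.78% of all probe sets (1033). Slamf1 was higher in LSC by 5.31 ± 1.28 (SE; 95% interval 2.29 to 8.34) and ranked 78 by p among all probe sets. Procr was higher by 3.69 ± 1.47 (0.20 to 7.18). Cd34 differed by -3.43 ± 1.21 (-6.31 to -0.55). Each of the 3 had an adjusted limma p of 0.999. Higher scores at an unadjusted p under 0.05 were found for 2 members and 0.995% of probe sets, and lower ones for 1 member and 3.79%.

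The other 6 members had intervals that include 0 in LSC minus HSC. Kit differed by -1.18 (-4.83 to 2.47), Flt3 by -1.14 (-7.33 to 5.06), Cd48 by -1.60 (-4.74 to 1.54) and Tek by 0.48 (-2.34 to 3.31). Esam differed by -0.28 and by 0.26 after each array was centred on its median, and Thy1 by -0.05 and by 0.49 after centring. These intervals are wide, and do not show that the groups are alike. Scores of the 2 groups did not overlap for 4 members, Slamf1, Procr, Cd34 and Cd48, against 34.4% of all probe sets, with 2 members higher (10.1% of probe sets) and 2 lower (24.3%). After centring these were 3 members, without Cd48, against 34.8%. A difference below 0 was found for 6 members and 62.9% of probe sets, and the median difference was -0.28 over the members and -0.47 over all probe sets.

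That shift of all probe sets bears on the direction of small differences. With arrays centred, Slamf1 differed by 5.85 and Procr by 4.23, and Cd34 by -2.89, for which the unadjusted p was no longer under 0.05. Of the probe sets at an unadjusted p under 0.05, 79.2% had lower scores in LSC as deposited and 57.3% after centring. Which array was left out also mattered. Slamf1 stayed between 4.66 and 5.97, Procr between 3.55 and 3.84 and Cd34 between -3.86 and -3.0 over the 6 fits that leave out 1 array each. Fits without an Alox5-/- LSC array cannot move these differences. Since the LSC and HSC scores of these members do not overlap, leaving out 1 array could not change their sign. Kit was 0.51 with LSC replicate 1 dropped and 0.22 with HSC replicate 2 dropped, and Flt3 0.78 and 0.086 without the same arrays. Tek was -0.51 and Thy1 0.60 without LSC replicate 1, Thy1 was 1.72 without HSC replicate 1, and Esam was 0.39 with LSC replicate 2 dropped and 1.68 with HSC replicate 2 dropped. The counts of members and of all probe sets at an unadjusted p under 0.05 also changed with the array of LSC or HSC left out, which leaves that group with 1 array.

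**Figure D2:**
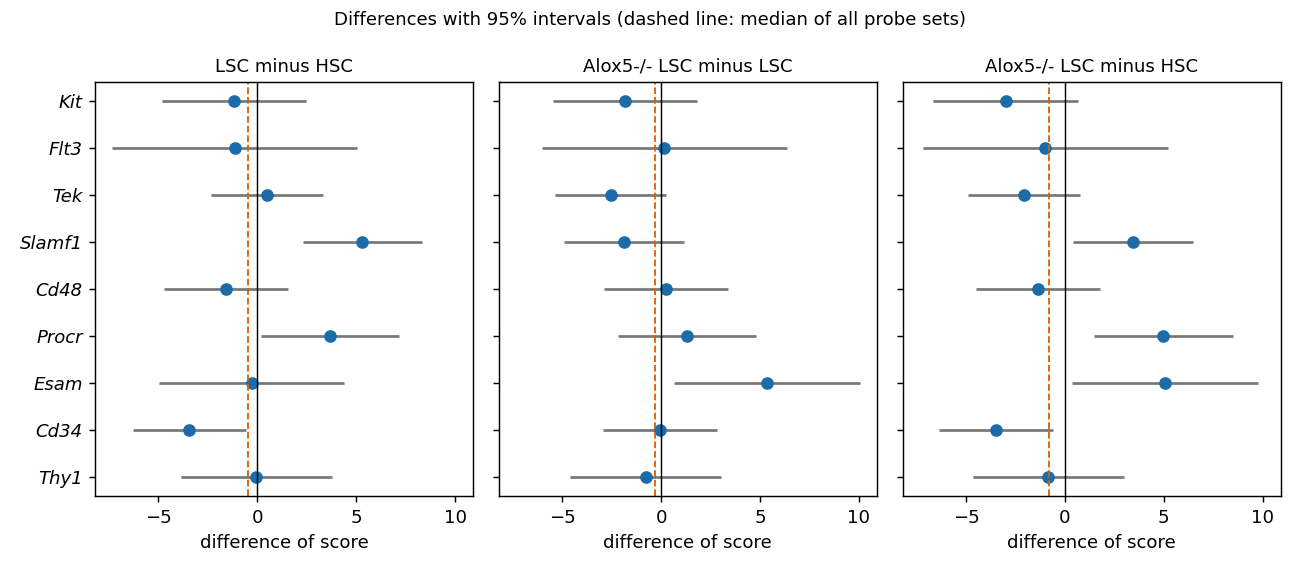
Differences of the deposited score between groups (dots, x axis in score units) with 95% intervals from limma for the 9 markers, 1 panel a comparison, with the median of all probe sets as a dashed line. Intervals that exclude 0 belong to Slamf1, Procr and Cd34 in LSC minus HSC, to Esam in Alox5-/- LSC minus LSC, and to these 4 in Alox5-/- LSC minus HSC.

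The second comparison, Alox5-/- LSC against LSC, addresses what the lack of Alox5 alters in cells that carry BCR-ABL. No probe set passed (limma, adjusted p; 0 called, 0.0%), with 3.48% (751) at an unadjusted p under 0.05, and 1 of the 9 members was among these. Esam was higher in Alox5-/- LSC by 5.35 ± 1.97 (SE; 0.67 to 10.04), and by 5.70 after centring, with an adjusted limma p of 1.0. It was 3.15 without Alox5-/- LSC replicate 1 and 7.56 without Alox5-/- LSC replicate 2, and had a p under 0.05 neither without the former nor without either LSC array. Higher scores at that p made up 0.847% of all probe sets and lower ones 2.63%. Tek was next, with -2.55 ± 1.19 (-5.37 to 0.27) and a range of -3.54 to -1.56 over the fits without 1 array.

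Slamf1 was lower in Alox5-/- LSC than in LSC by value, with -1.87 (-4.90 to 1.16), and Kit likewise with -1.81 (-5.46 to 1.83). Kit was -0.12 with LSC replicate 2 dropped and -3.5 with LSC replicate 1 dropped. Procr differed by 1.30 (-2.19 to 4.80) and by -0.31 without Alox5-/- LSC replicate 1, which carried its highest score. Cd34 differed by -0.04 (-2.92 to 2.85), by 0.31 after centring and by 0.46 after quantile normalization. It was 1.16 without Alox5-/- LSC replicate 1 and 0.32 without LSC replicate 2. Flt3 differed by 0.15 (-6.04 to 6.35), with -3.65 without Alox5-/- LSC replicate 1 and -1.76 without LSC replicate 1. Cd48 differed by 0.24 (-2.90 to 3.37), with -1.20 and -0.64 without the same arrays, and Thy1 by -0.78 (-4.60 to 3.05), with 0.40 without Alox5-/- LSC replicate 1. Scores of the groups did not overlap for 3 members (Esam, Tek and Slamf1), against 30.7% of all probe sets. Esam was higher (9.64% of probe sets) and the other pair lower (21.1%). After centring there were again 3, against 31.6%, with Procr in place of Slamf1. A difference below 0 was found for 5 members and 58.3% of probe sets, and the median difference was -0.04 over the members and -0.29 over all probe sets. The share of lower scores among probe sets at an unadjusted p under 0.05 was 75.6% as deposited and 51.6% after centring, and their number was 1396 without Alox5-/- LSC replicate 2.

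The third comparison, Alox5-/- LSC against HSC, differs by BCR-ABL and by Alox5 at once, and shares arrays with each of the others. No probe set passed (limma, adjusted p; 0 called, 0.0%; smallest adjusted p 0.557 over all and 0.697 among the members). At an unadjusted p under 0.05 stood 4 members, against 7.11% of all probe sets (1536). Higher scores were those of Procr, by 4.99 ± 1.47 (SE; 1.5 to 8.49), Esam, by 5.07 ± 1.97 (0.38 to 9.75), and Slamf1, by 3.44 ± 1.28 (0.42 to 6.47). Such higher scores made up 0.778% of all probe sets. Cd34 differed by -3.47 ± 1.21 (-6.35 to -0.59). Lower scores at an unadjusted p under 0.05 made up 6.33% of all probe sets. After centring Procr stood at 5.88, Esam at 5.96, Slamf1 at 4.33 and Cd34 at -2.58, and Cd34 no longer had an unadjusted p under 0.05. Of the probe sets at that p, 89.1% had lower scores as deposited and 54.6% after centring.

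Kit, with -2.99 (-6.64 to 0.66), and Tek, with -2.07 (-4.89 to 0.75), had lower scores on both Alox5-/- LSC arrays than on both HSC arrays. After centring Kit was -2.10 and Tek -1.18, and Tek then overlapped. Cd48 differed by -1.36, with 0.069 without Alox5-/- LSC replicate 2. Flt3 differed by -0.98, with 2.82 without that array and 0.24 without HSC replicate 2. Thy1 differed by -0.82, with 0.065 after centring, 0.35 without Alox5-/- LSC replicate 1 and 0.94 without HSC replicate 1. Over the fits without 1 array, Procr ran from 3.38 to 6.61, Slamf1 from 2.79 to 4.09, Esam from 2.87 to 7.27 and Cd34 from -4.66 to -2.27. The counts of members and of all probe sets at an unadjusted p under 0.05 changed with the array left out, not always in the same direction. Such fits leave a group with 1 array. Scores did not overlap for 6 members, against 35.7% of all probe sets, with 3 higher (6.54% of probe sets) and 3 lower (29.1%). After centring these were 5, without Tek, against 34.5%. A difference below 0 was found for 6 members and 70.0% of probe sets.

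**Figure D3:**
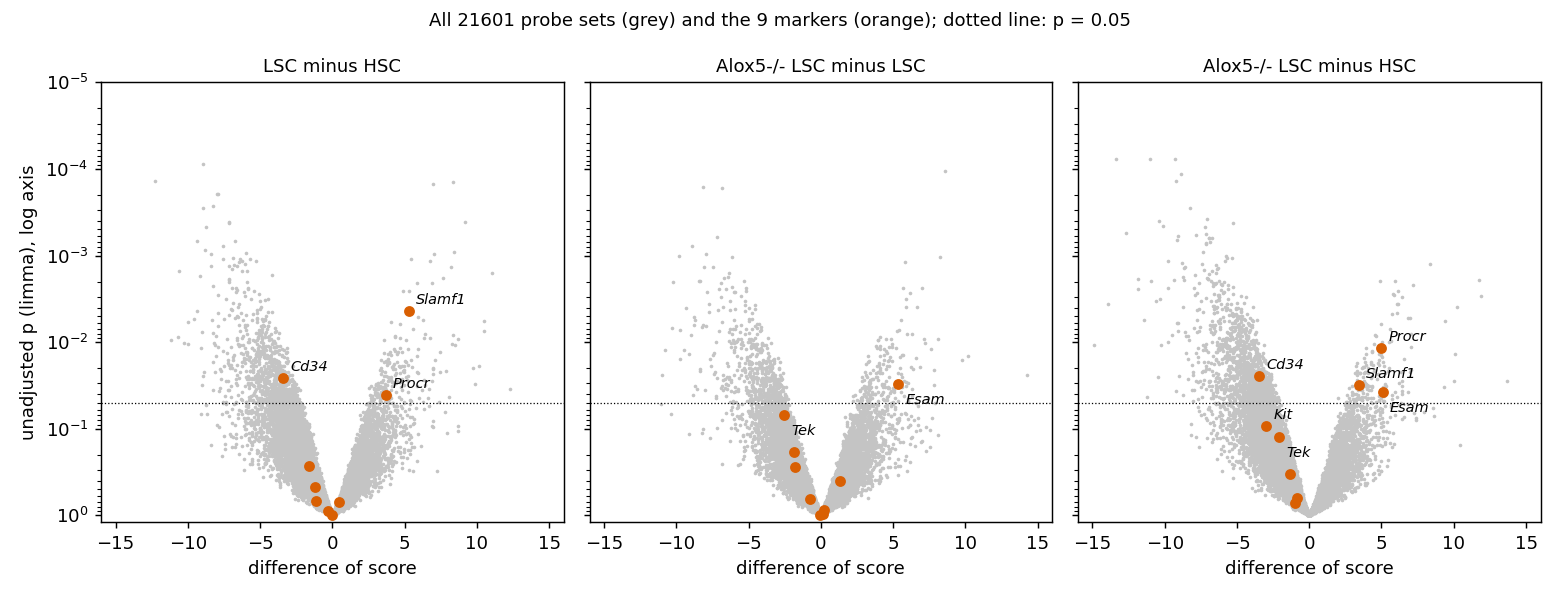
Difference of score (x axis) against unadjusted limma p (y axis, log scale, smaller values up) for 21601 probe sets in grey and the 9 markers in orange, with a dotted line at 0.05. The markers lie within the grey cloud in each panel, and many other probe sets have smaller p than any marker.

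The 4 arrays with BCR-ABL were also set against the 2 HSC arrays, a comparison added after the data were seen, which reuses the arrays above and joins wild-type and Alox5-/- cells. Slamf1 was higher by 4.38 ± 1.1 (SE; 1.76 to 7.0) and Procr by 4.34 ± 1.27 (1.32 to 7.37), and Cd34 differed by -3.45 ± 1.05 (-5.95 to -0.95). No probe set passed (limma, adjusted p; 0 called, 0.0%), with 6.59% (1424) at an unadjusted p under 0.05, and the smallest adjusted p among the members was 0.644. The 1424 became 2150 without HSC replicate 1, 854 without HSC replicate 2 and 946 without LSC replicate 1. Higher scores at that p made up 0.731% of probe sets and lower ones 5.86%, and a difference below 0 was found for 6 members and 68.3% of probe sets. Of the probe sets at that p, 88.9% were lower as deposited and 58.3% after centring. Slamf1, Procr and Cd34 were the members without overlap between the 4 and the 2 arrays, against 16.0% of all probe sets. A score higher on all 4 arrays was found for 2.59% of probe sets and a lower one for 13.5%. Slamf1 ran from 4.05 to 4.71 over the fits without 1 array, Procr from 3.54 to 5.15 and Cd34 from -4.05 to -2.85. After centring Cd34 was -2.74, no longer at an unadjusted p under 0.05, Slamf1 5.09 and Procr 5.06.

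**Figure D4:**
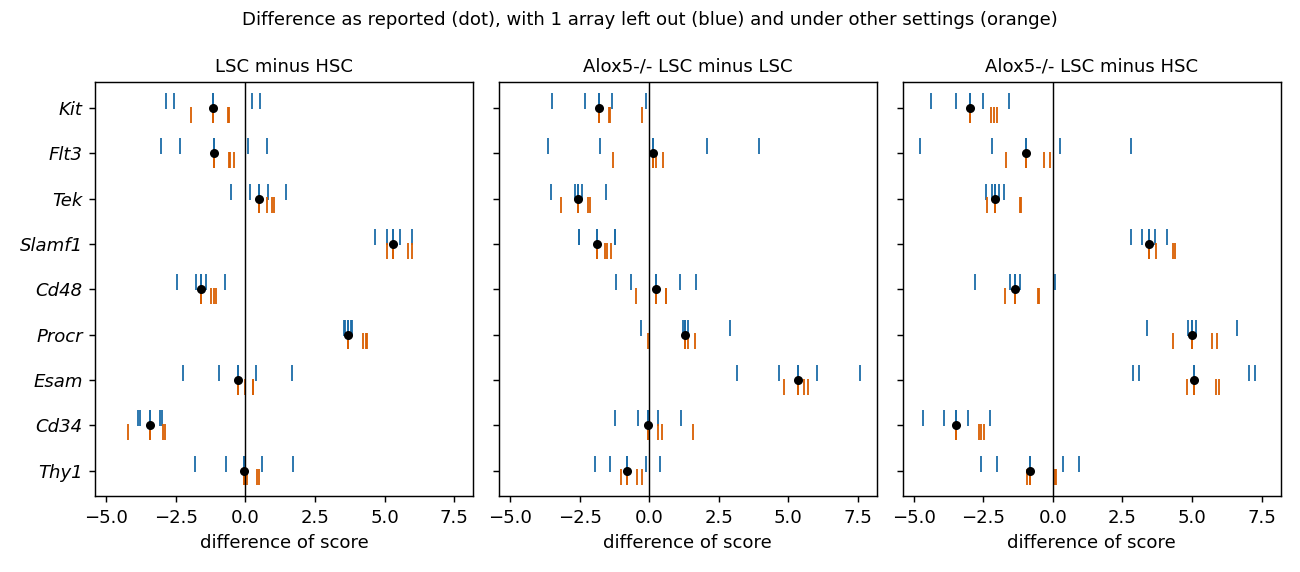
Difference of score (x axis) for the 9 markers as reported (black dots), with 1 array left out in turn (blue ticks) and under the other settings tried (orange ticks). Slamf1, Procr and Cd34 stay on one side of 0 in both comparisons with HSC, while Flt3 and Thy1 cross it in all 3 panels. For Slamf1, Procr and Cd34 the groups do not overlap there, so leaving out 1 array could not change the sign. Several other settings cannot move a difference at all.

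Ligands and partners of the members were read from a list of 17 genes, of which 14 were measured. The counts at an unadjusted p under 0.05 in this and the following lists stand against 4.78%, 3.48% and 7.11% of all probe sets in the 3 comparisons, and nothing is read from a count of 1 or 2 genes. In LSC against HSC 0 had higher and 1 lower scores at an unadjusted p under 0.05. The counts were 0 and 0 for Alox5-/- LSC against LSC, and 0 and 2 for Alox5-/- LSC against HSC. Angpt1, the angiopoietin that activates Tek, had 21.2 and 25.2 in HSC, 13.3 and 19.0 in LSC, and 16.4 and 13.3 in Alox5-/- LSC. All 4 BCR-ABL scores of Angpt1 lie below both HSC scores, which held for 13.5% of all probe sets. Against HSC, Angpt1 differed by -7.06 ± 2.35 (SE) in LSC and by -8.35 ± 2.35 in Alox5-/- LSC. Itgav, an integrin chain that binds Thy1, differed by -5.62 in Alox5-/- LSC minus HSC. The adjusted p of Angpt1 was 0.999 and 0.697, and that of Itgav 0.697.

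Other surface proteins of stem and progenitor cells numbered 34 symbols, with 29 measured on 30 probe sets. In LSC against HSC 1 was higher and 2 were lower at an unadjusted p under 0.05, then 0 and 0 in Alox5-/- LSC against LSC, and 1 and 0 in Alox5-/- LSC against HSC. Itga2b (CD41), an integrin of platelets and of megakaryocyte-biased stem cells, had 12.3 and 13.8 in HSC, 15.3 and 18.1 in LSC, and 17.5 and 14.9 in Alox5-/- LSC. As for Slamf1 and Procr, all 4 BCR-ABL scores lie above both HSC scores, which held for 2.59% of all probe sets. LSC minus HSC was 3.64 for Itga2b. The cytokine receptor chains Csf3r and Csf2rb differed by -4.11 and -4.47 in LSC minus HSC. For each of these chains all 4 BCR-ABL scores lie below both HSC scores, which held for 13.5% of all probe sets. Vcam1, an adhesion molecule, differed by 5.18 in Alox5-/- LSC minus HSC. Of 29 signalling genes downstream of Kit, Flt3 and Tek, 25 were measured, and 1, 1 and 0 had such a p in the 3 comparisons. This was the kinase Akt1, with 14.1 and 16.0 in HSC, 20.9 and 17.6 in LSC, and 13.4 and 14.7 in Alox5-/- LSC. It was higher in LSC than in HSC by 4.20, and Alox5-/- LSC minus LSC was -5.19. Each of these genes had an adjusted p of 0.697 or above.

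Several members are also carried by cells other than stem cells, so marker lists of such cells were read beside them. All 13 endothelial genes, of the cells that share Tek, Esam and Procr, were measured, none at 0 on all arrays, with summed scores of 206.7 and 209.3 in HSC, 208.5 and 203.7 in LSC and 215.4 and 192.6 in Alox5-/- LSC. Of these, 1 (Kdr, the VEGF receptor, -3.19 in LSC minus HSC) had an unadjusted p under 0.05 in LSC against HSC, and 0 in the other comparisons. Of 12 T cell genes, which share Thy1, 10 were measured, with summed scores from 153.8 to 169.1. There 0, 0 and 1 (Cd3d) had such a p. Of 10 megakaryocyte genes, which share Esam and Slamf1, 6 were measured, with summed scores from 93.7 to 105.0. There 1 (Itga2b), 1 (Pf4) and 0 had such a p. Of 10 mast cell genes, which share Kit, 9 were measured, with summed scores of 168.1 and 171.5 in HSC, 158.4 and 158.5 in LSC and 169.9 and 151.9 in Alox5-/- LSC. There 1, 0 and 2 had such a p. Cpa3, a mast cell protease, differed by -5.76 in LSC minus HSC and by -5.54 in Alox5-/- LSC minus HSC. Tpsb2, another mast cell protease, differed by -2.93 in Alox5-/- LSC minus HSC. In the B cell list (8 of 9 measured; summed scores 118.0 and 125.0 in HSC, 113.2 and 109.3 in LSC, 116.9 and 107.0 in Alox5-/- LSC) 3, 0 and 2 genes had such a p. They went both ways, with 1 higher and 2 lower in LSC against HSC, and 1 higher and 1 lower in Alox5-/- LSC against HSC. In the erythroid list (7 of 10; 93.2 to 117.7) 1 (higher), 1 (lower) and 1 (lower) had one. In the granulocyte and monocyte list (13 of 14; 158.7 to 199.1) 0, 1 (lower) and 1 (lower) did. With the direction of the score unknown, presence or absence of these cells cannot be read from it, and their part in the members' values was not tested. Ly6a, the gene of Sca-1, was in the list of other surface proteins above, and its own scores are not given here.

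The gene most alike each member over the 6 arrays was sought among all 19934 symbols by Pearson correlation. For Slamf1 it was Hsd3b7 (r = 0.992), for Procr Pgbd1 (0.994), for Cd34 Tmem170b (0.996), for Esam Tcf23 (0.994) and for Kit Mir329 (0.998). For Flt3 it was Alas1 (0.998), for Tek Lrrc10 (0.998), for Cd48 Vldlr (0.997) and for Thy1 Clec4b2 (0.990). The highest correlation with any other symbol had a median of 0.995 over all symbols and was never under 0.947, so with 6 arrays such values are ordinary. No member was the gene most alike another member.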

How the data were processed

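RNA of sorted mouse cells was hybridised to Affymetrix whole-transcript arrays, 2 arrays in each of 3 groups taken from the sample titles. In the deposited table each array has 1 score for every probe set. Affymetrix Expression Console 1.1 and RMA are named, per the submitters' processing notes. The authors' unit, scale and direction of the deposited score are not given in the sources used here. The planned design assumed log2 expression. Across the arrays, 33.45 to 53.66% of probe sets exceeded 16, the log2 limit of a scan of 2 bytes. The scores are therefore not log2 signals of such a scan. The same model was applied to them as deposited. Of 35557 probe sets, 1058 had no value on any array, 21601 had values and 1 symbol and were fitted, 1265 had several symbols, and for 11633 no symbol was listed.

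Each probe set was fitted with limma 3.58.1 in R 4.3.3, with a mean per group over all 6 arrays, 3 residual degrees of freedom and a prior variance that follows the mean score. Tests were two-sided, with Benjamini-Hochberg adjustment over all 21601 probe sets and a threshold of 0.05. A run on simulated independent normal values was a check of the code. It does not show how the tests behave on these scores of unknown scale. An exact permutation test of 2 arrays against 2 cannot go below p = 0.333. With so few arrays, precision is low. The members and gene lists were chosen with earlier results of these data known. All probe sets of the members are named. List genes are named at an unadjusted p under 0.05, at most 6 a list and comparison. The genes so named in the B cell, erythroid, granulocyte and monocyte lists are given as counts. Alternatives were other scalings, probe set filters, covariates and leaving out each array.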

Additional observations from a re-analysis of the deposited data

How the results depend on the processing

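No member passed an adjusted p of 0.05 under any of the alternatives run (lowest adjusted p 0.443, limma), and 0 probe sets were called in any of them. Of 519 alternative values of member differences, 478 kept their sign and 41 did not. Many of these values could not change. Probe set filters, the prior variance without a trend, the replicate block and fitting only the groups compared leave a difference as it is. Leaving out an array of a group outside the comparison does too. The share that kept its sign is therefore no measure of stability. The members' counts at an unadjusted p under 0.05 ran from 1 to 3 for LSC against HSC, 0 to 1 for Alox5-/- LSC against LSC and 1 to 3 for Alox5-/- LSC against HSC when 1 array was left out. The number that ends the name in each description was also used as a covariate. Members at that p were then 0 for Alox5-/- LSC against LSC, beside 530 of all probe sets. For Alox5-/- LSC against HSC they were 1, beside 1029, and for LSC against HSC 3, beside 978. With the replicate number as a block, the count for Alox5-/- LSC against HSC was 2 (Procr and Cd34), beside 1279 probe sets. That for LSC against HSC was 2, without Procr, beside 884, and that for Alox5-/- LSC against LSC 1, beside 635. The differences between replicates 1 and 2 correlated over probe sets at 0.00323 (HSC and LSC), -0.0588 (HSC and Alox5-/- LSC) and -0.0548 (LSC and Alox5-/- LSC). No pairing by number is seen over all probe sets, but a weak one, or one in few probe sets, would not show in these values.

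Signs changed as follows, and the cause was not tested. In LSC minus HSC, Esam was 0.26 and Thy1 0.49 with centred arrays, Esam 0.27 and Thy1 0.40 after quantile normalization, and Thy1 0.073 with the description number. In Alox5-/- LSC minus LSC, Cd34 was 0.31 with centred arrays, 0.46 after quantile normalization and 1.56 with the description number, which also gave -0.49 for Cd48, -0.048 for Procr and -1.29 for Flt3. In Alox5-/- LSC minus HSC, Thy1 was 0.065 with centred arrays and 0.13 after quantile normalization, and for all BCR-ABL arrays 0.28 and 0.26. With 1 array left out, LSC minus HSC ran from -0.51 to 1.47 for Tek, -2.87 to 0.51 for Kit, -3.05 to 0.78 for Flt3, -2.25 to 1.68 for Esam and -1.82 to 1.72 for Thy1. Alox5-/- LSC minus LSC ran from -1.20 to 1.67 for Cd48, -1.23 to 1.16 for Cd34, -0.31 to 2.92 for Procr, -3.65 to 3.96 for Flt3 and -1.95 to 0.40 for Thy1. Alox5-/- LSC minus HSC ran from -2.80 to 0.069 for Cd48, -4.78 to 2.82 for Flt3 and -2.59 to 0.94 for Thy1, and all BCR-ABL arrays minus HSC from -2.96 to 0.84 for Flt3 and -2.20 to 1.33 for Thy1.

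Over all probe sets the count at an unadjusted p under 0.05 moved with the arrays and the probe sets used. For LSC against HSC it was 1033, with 1699 without HSC replicate 1, 681 without LSC replicate 1 and 1704 over all 34499 probe sets with values. For Alox5-/- LSC against LSC it was 751, with 1396 without Alox5-/- LSC replicate 2 and 1365 over all probe sets with values. For Alox5-/- LSC against HSC it was 1536, with 902 without HSC replicate 2, 2217 without HSC replicate 1 and 2223 over all probe sets with values. For all BCR-ABL arrays it was 1424, with 2150 without HSC replicate 1, 854 without HSC replicate 2, 946 without LSC replicate 1 and 2155 over all probe sets with values. Leaving out probe sets with low mean scores removed Kit, Cd48 and Cd34.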
